A study of Mus musculus with 70 samples.

Results

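Cytosolic ribosomal proteins were compared between HAB and LAB mice, lines bred from CD-1 mice for much (HAB) or little (LAB) anxiety on the elevated plus-maze. On the MPIP24k array, a glass slide spotted with mouse cDNA clones, all spots were taken whose name began with ribosomal protein L, ribosomal protein S or ribosomal protein, large, and names with mitochondrial or kinase were left out. This gave 78 of 22824 spots, which carried 58 names: 31 proteins of the large subunit (L), 25 of the small subunit (S) and the stalk proteins P1 and P2. The brightest spot over all arrays stood for a name. The mice, untreated apart from behavioral tests, were killed when 10 weeks old, 3 days after a tail-suspension test. RNA of 6 male HAB mice and of 6 male LAB mice was pooled for each of 7 regions punched from frozen brain slices. These were 2 nuclei of the hypothalamus, the supraoptic (SON) and the paraventricular (PVN), 3 of the amygdala, the medial (MeA), central (CeA) and basolateral (BLA), and furthermore the cingulate cortex (Cg) and the nucleus accumbens (NAc). Every array held both pools of a region, 5 times with HAB in the dye Cy3 and 5 times with HAB in Cy5. The 10 arrays of a region thus repeated the measurement of the same pair of pools, which makes them technical replicates, and all regions came from the same mice. Values are given as log2 HAB/LAB, so that a positive value means more RNA in HAB mice.

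Ribosomes read messenger RNA into protein. The small subunit holds the messenger RNA and decodes it, the large subunit joins the amino acids, and the stalk of the large subunit, with P1 and P2, brings in the elongation factors. Cells make the ribosomal proteins in balanced amounts. In bulk tissue, fewer cells of a type and less RNA per cell cannot be told apart. A cDNA spot also binds near-identical copies of a gene, so S27 and S27-like, or a gene and its processed copies, may share signal.

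Of the 58 members, 51 (87.9%) were brighter than the empty spots of the array on at least 35 of 70 arrays in either line, against 54.8% of all probes. The other 7 were L13, L31, L32, S2, S7, S11 and S20, and they stay in every count of 58. Median spot intensity ranged from 206 to 1938 over the 70 arrays, with no more than 18 saturated spots on any of them. Vasopressin, a defining gene of PVN and SON, was above the empty spots in the PVN on all 10 arrays of both lines, and in SON on 10 in HAB and 5 in LAB. Oxytocin, the other defining gene, was so on 10 arrays in HAB and 9 in LAB in PVN, but in SON on 2 and 4. Preproenkephalin, abundant in the striatum, was above the empty spots on all 10 NAc arrays of both lines and on at most 8 elsewhere, whereas the other striatal gene, protein phosphatase 1, regulatory (inhibitor) subunit 1B, was so on 4 HAB and 2 LAB arrays in NAc and on 6 and 9 in PVN. T-box brain gene 1, a gene of projection neurons of cortex and basolateral amygdala, was above them on 0 arrays in BLA, on 5 HAB and 6 LAB arrays in Cg and on 7 and 6 in MeA, so it did not mark BLA or Cg on these arrays. For CeA and MeA, glutamic acid decarboxylase 1 was above them on all 10 arrays of both lines, as in every other region. Glutamic acid decarboxylase 2 was so on 5 arrays of each line in CeA and on 2 HAB and 3 LAB arrays in MeA. Neither gene set MeA apart from the other regions.

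All 58 names were matched to a RefSeq gene of the mouse assembly GRCm38.p6, 2 of them by an older symbol, and they lay on 19 chromosomes, with the most, 12, on chromosome 7. Promoter sequence from RefSeq, 250 bases before to 50 bases after an annotated start, was at hand for 41 of these genes with 50 starts. The letters CCGGAAG, the core of the site bound by ETS family factors, were found on either strand in 32% of the 50 promoters and in 8.86% of all 32851 promoters. The letters AAGATGGC, the core of the YY1 site, were found in 12% against 2.75%, CTTTCC, a pyrimidine run as it occurs at the start of ribosomal protein messages, in 48% against 26.6%, and TATAAA in 6% against 13.6%. These matches describe letters and not bound sites. All were counted on either strand and anywhere in the 300 bases, so the CTTTCC share does not measure runs at the message start. The following stretches, 100 bases before to 20 bases after the start, are shown for S3a, the only member past the test over the regions, for S25, which was higher in NAc on every array, and for S16 and L26, the members with the lowest values in Cg; capitals mark CCGGAAG.
Rps3a1, chr3:86142649-86142768, reverse strand: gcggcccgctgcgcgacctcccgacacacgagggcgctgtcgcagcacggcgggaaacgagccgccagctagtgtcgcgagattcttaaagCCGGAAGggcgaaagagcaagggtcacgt
Rps25, chr9:44407614-44407733, forward strand: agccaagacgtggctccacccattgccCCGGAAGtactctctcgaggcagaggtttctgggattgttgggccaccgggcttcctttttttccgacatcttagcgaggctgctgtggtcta
Rps16, chr7:28350589-28350708, forward strand: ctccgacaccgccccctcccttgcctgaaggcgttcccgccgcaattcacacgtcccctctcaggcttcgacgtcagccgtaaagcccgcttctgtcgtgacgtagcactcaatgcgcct
Rpl26, chr11:68901466-68901585, forward strand: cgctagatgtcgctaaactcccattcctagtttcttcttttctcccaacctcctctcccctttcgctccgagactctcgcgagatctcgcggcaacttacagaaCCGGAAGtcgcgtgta
In Rps3a1 the motif began 9 bases before the annotated start and in Rps25 73 bases before it. In Rpl26 it began 4 bases after the start, and Rps16 held none in its 300 bases. L10A and L13a, with high means over the regions, held none either, and L27a, with the lowest mean, held one 169 bases before the start. Of 17 members, L3, L7, L8, L21, L29, L30, L32, L36, S5, S8, S11, S14, S17, S20, S27a, S29 and P1, no promoter is given.

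The first question was whether the lines differed in the same direction over the whole limbic sample. Ribosomal protein S3a, a component of the small subunit, was the only member past limma over the 7 region values, and it was higher in HAB mice. A member was called where limma's adjusted p, with Benjamini-Hochberg adjustment over all 22824 probes, was at most 0.05. By this rule 1 of 58 members was higher and 0 were lower, while 0.127% of all probes were higher and 0.175% lower. At an unadjusted p of at most 0.05 limma gave 7 members (12.1%), 5 higher and 2 lower, and 6.33% of all probes. The exact sign-flip permutation test over the 7 values called none after adjustment, but it could not decide the question. Its smallest two-sided p, 0.0156, was shared by 491 probes, and the lowest adjusted p over all probes was 0.726. The median over the members of their mean over the regions was 0.01, beside 0.00 over all probes, so the group as a whole stood level between the lines. Since all regions came from the same mice, these p-values understate the uncertainty about the lines.

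**Figure D1:**
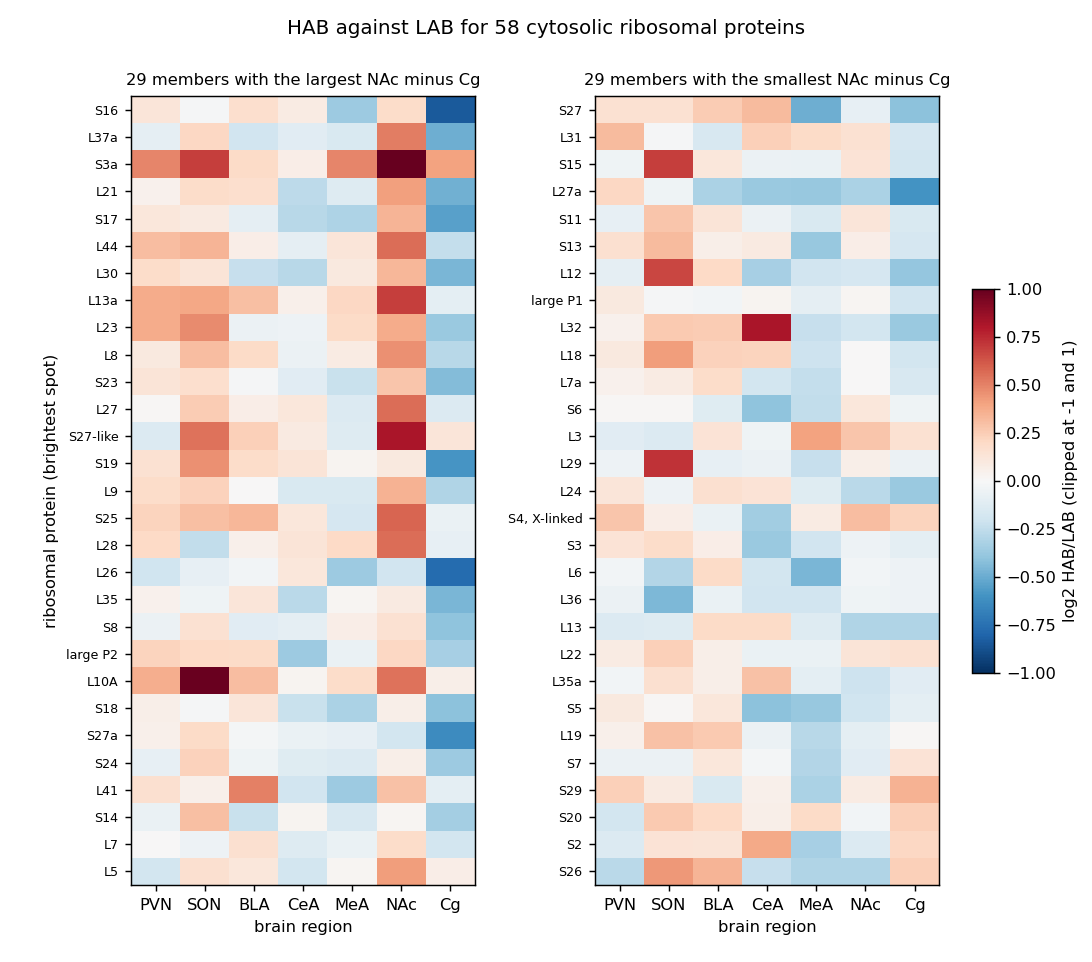
Mean log2 HAB/LAB of the 58 cytosolic ribosomal proteins (rows) in the 7 brain regions (columns), sorted by the value in NAc minus the value in Cg; red is higher in HAB, blue is lower, and colors end at -1 and 1. The Cg column is mostly blue, with 45 of 58 members below 0, and the NAc column mostly red, with 40 above 0, while S3a is above 0 in all 7 columns.

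S3a was above 0 in 7 of 7 regions, with a mean of 0.52 ± 0.11 (SE, n = 7 regions), a 1.44-fold difference, and an adjusted p of 0.0255 by limma. In NAc its lowest array stood at 0.72, the median at 1.34 and the highest at 2.13, and the mean was 1.34 ± 0.44 (SD, n = 10 arrays), or 2.54-fold. In PVN the arrays ran from 0.07 over 0.49 to 0.96, again with all 10 above 0. In SON they ran from -0.53 over 0.84 to 1.67 around a mean of 0.69, with 1.28 where HAB was in Cy3 and 0.10 where HAB was in Cy5. MeA had a mean of 0.49 with 7 of 10 arrays above 0, and Cg a mean of 0.40 with 9 of 10. In BLA and CeA, with means of 0.19 and 0.07, the arrays lay on both sides of 0. The NAc value was thus the highest, those of SON, PVN, MeA and Cg differed from each other by less than the SD between arrays in SON, MeA or Cg, and BLA and CeA were the lowest. On the scale of the scanner before normalization, the S3a spot exceeded the empty spots in the HAB channel of 69 arrays and in the LAB channel of 61. S3a has 1 spot on the array, so no other spot of the name could be set beside it.

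The S3a call was lost, with the mean between 0.39 and 0.55, without the NAc (adjusted p 0.103), SON (0.159), MeA (0.0962), Cg (0.0639) or PVN region (0.0564) by limma, and without replicate 2 (0.0502), 4 (0.0695) or 5 (0.0545) of every region. It was also lost with HAB in Cy5 only, where the mean was 0.30 (0.287), against 0.75 (0.00632) with HAB in Cy3 only.

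**Figure D2:**
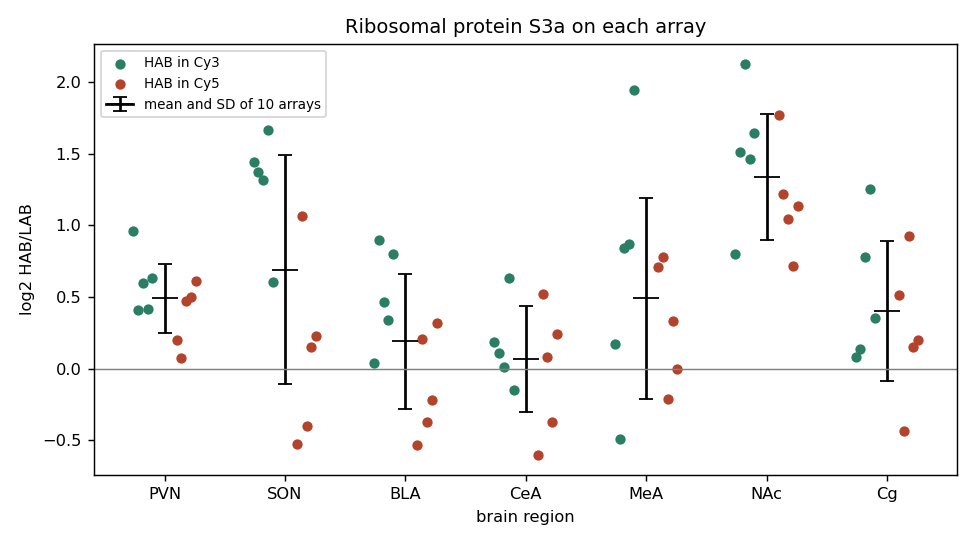
Log2 HAB/LAB of ribosomal protein S3a on each of the 10 arrays of a region, colored by the dye that held HAB, with the mean and SD of the 10 arrays as bars. In NAc and PVN all 10 arrays lie above 0; in SON the arrays with HAB in Cy5 lie lower than those with HAB in Cy3.

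Next to S3a, the highest means over the regions among members above the empty spots were those of L10A, L13a, S27-like and S25, and none of these passed limma. L10A, which forms the mobile L1 stalk where spent transfer RNA leaves, had a mean of 0.35 ± 0.10 (SE, adjusted p 0.235) and was above 0 in 7 of 7 regions. Its arrays in SON ran from 0.06 over 0.95 to 1.72, and those in NAc from 0.12 over 0.53 to 0.95, so that in both regions all 10 lay above 0. Its dimmer spot had a mean of 0.01, with 0.03 in SON and -0.23 in NAc. In these regions the spots of L10A thus differed by more than the SD between arrays of the brighter spot, 0.45 and 0.25. L13a, which also takes part in silencing of inflammatory messages, had a mean of 0.27 ± 0.09 (SE, adjusted p 0.454) and was above 0 in 6 regions. S25, needed by several internal ribosome entry sites, had a mean of 0.19 ± 0.09 (SE, adjusted p 0.787). S27-like, a copy of S27 induced by p53, had a mean of 0.22 ± 0.10 (SE, adjusted p 0.765), but it exceeded the empty spots in the HAB channel of 48 arrays and in the LAB channel of 34, and so met the minimum of 35 in HAB only. In NAc, where its mean was highest, it was above the empty spots on 6 of 10 arrays in HAB and on 0 in LAB, so no fold is given there.

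The lowest means were those of L27a, L26, L36, S5 and L6. L27a had -0.26 ± 0.09 (SE, adjusted p 0.531), L26 -0.22 ± 0.09 (0.740), L36 -0.15 ± 0.08 (0.840), S5 -0.12 ± 0.09 (0.898) and L6 -0.12 ± 0.09 (0.898) by limma. L36 was below 0 in 7 of 7 regions, though its other spots had means of 0.06 and -0.08. Of the 4 spots of L27a the brightest had the lowest mean, and the other 3 had 0.02, 0.04 and -0.12. S5, which lies near the exit of the messenger RNA, was the only name whose spots disagreed by at least 1.3-fold each way: in CeA the brighter spot stood at -0.41 and the dimmer at 0.47. S6, the target of the S6 kinases, had a mean of -0.10 on its brighter spot and 0.22 on its dimmer, neither past the test. The stalk proteins P1 and P2 had means of -0.02 and 0.01.

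A second question was whether the members moved in single regions. The median over the 58 members was lowest in Cg, -0.18, and highest in SON, 0.17, with -0.14 in MeA, -0.06 in CeA, 0.06 in PVN, 0.10 in NAc and 0.11 in BLA. The median over all probes was between 0.00 and 0.01 in every region. Over the 2605 probes at least as bright as the median member it was 0.02 in Cg, 0.01 in SON, -0.01 in MeA, -0.11 in CeA, -0.01 in PVN, 0.04 in NAc and -0.05 in BLA. In Cg the median over the members on single arrays ran from -0.39 over -0.19 to 0.01, and 9 of 10 arrays lay below 0. In NAc it ran from 0.07 over 0.16 to 0.24, with all 10 above 0, and in PVN from -0.01 over 0.08 to 0.22. No NAc array overlapped a Cg array. In SON the range was -0.12 over 0.20 to 0.49, in BLA -0.30 over 0.16 to 0.34, in CeA -0.24 over -0.09 to 0.21 and in MeA -0.42 over -0.14 to 0.10. Here the dyes mattered: with HAB in Cy3 and in Cy5 the median was 0.38 and 0.00 in SON, 0.25 and -0.03 in BLA, and 0.08 and -0.29 in MeA. Medians over the 2605 bright probes also shifted, with 0.17 and -0.14 in SON, 0.25 and -0.34 in BLA and 0.16 and -0.14 in MeA. In Cg they were 0.20 and -0.13, in CeA 0.07 and -0.28, in NAc 0.11 and -0.03 and in PVN 0.00 and -0.02. Among the members, both orientations had the same sign in NAc (0.15 and 0.13) and PVN (0.14 and 0.05). They also did in CeA (-0.04 and -0.03) and Cg (-0.07 and -0.20). Single arrays of Cg did not overlap between the orientations, however. They ran from -0.17 to 0.01 with HAB in Cy3 and from -0.39 to -0.22 with HAB in Cy5. The scan headers gave 2 dates within Cg: the median was -0.22 over the 6 arrays of the first and -0.12 over the 4 of the second, all of these with HAB in Cy3. In BLA it was 0.11 over 7 arrays and 0.02 over 3, and in CeA -0.05 over 2 arrays and -0.03 over 8.

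**Figure D3:**
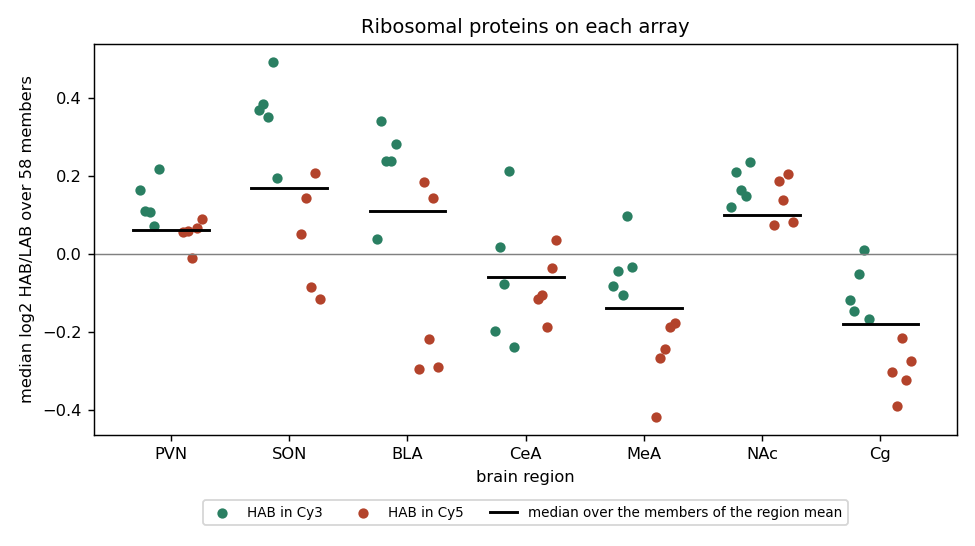
Median log2 HAB/LAB over the 58 members on each of the 70 arrays, by region and by the dye that held HAB; the black bar is the median over the members of the region mean. All 10 NAc arrays lie between 0.07 and 0.24 and 9 of 10 Cg arrays lie below 0. In MeA and Cg every array with HAB in Cy3 lies above every array with HAB in Cy5. In SON and BLA arrays with HAB in Cy3 tend to lie higher, with overlap.

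The order of NAc and Cg was alike in most of the list, a comparison chosen after seeing the data, though not all members changed sign. S3a was above 0 in both regions and L27a below 0 in both. In 49 of 58 members (84.5%) the value in NAc was higher than in Cg, against 49.6% of all probes and 46.9% of the 2605 bright probes. Cg was the lowest of the 7 regions in 29 of 58 members, against 15.9% of all probes and 15.3% of those bright probes. The highest region was NAc in 21 members and SON in 17, against 14.9% and 15.1% of all probes. The count of members higher in NAc than in Cg was 47 with HAB in Cy3 only and 44 with HAB in Cy5 only. Cg was the lowest region in 20 and 15 members in these, and in 16 after scaling by the array median alone. The medians of large and small subunit names had the same sign in each region: they were -0.18 and -0.15 in Cg, and 0.15 and 0.08 in NAc, the P proteins counted with the large subunit, and -0.12 and -0.19 in MeA. Whether the subunits differed was not tested. As a description, Pearson's r over the 7 region values averaged 0.30 over all pairs of the 58 members and 0.03 over all pairs of the 2605 bright probes. The most alike were L9 and S17, with an r of 0.990 over 7 regions. L9 stood at 0.35 in NAc and -0.30 in Cg, and S17 at 0.34 and -0.54. All members on an array share its pools, amplification and dyes.

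Single members were counted in a region where the mean was at least 1.3-fold and all 10 arrays lay on the same side of 0, with no p, since each line gave 1 pool. In Cg 6 of 58 members were lower and 0 higher, against 0.819% of all probes lower and 0.762% higher. Among the 2605 bright probes 4.49% were lower there. The count of 6 became 1 with scaling by the array median alone and 2 with loess without the print-tip step, but 8 with print-tip loess and 9 in the deposited log2 table. It was 9 with HAB in Cy3 only and 19 with HAB in Cy5 only, where 5 arrays had to share a side. With 5 arrays more probes of any kind can meet the rule. No share of all probes is given for any of these settings, so the counts show only how far the 6 depends on processing. S16, whose tail reaches into the decoding center, was the lowest: its arrays ran from -1.46 over -0.87 to -0.32, with a mean of -0.84 ± 0.38 (SD, n = 10), or 1.79-fold lower in HAB mice. S27a, which is made as a fusion with ubiquitin, ran from -1.28 over -0.70 to -0.07, with -0.31 where HAB was in Cy3 and -0.96 where it was in Cy5. L27a ran from -1.45 over -0.56 to -0.02, and its other spots had -0.49, -0.46 and -0.02 in Cg. S19, the gene most often mutated in Diamond-Blackfan anemia, ran from -1.29 over -0.53 to 0.00, and L30 from -1.10 over -0.37 to -0.04. L21 ran from -2.08 over -0.38 to 0.00, and its dimmer spot had -0.32. The highest array of S19 and of L21 lay just below 0. L26, which had -0.77 in Cg, was not among the 6, since 2 of its arrays lay above 0.

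**Figure D4:**
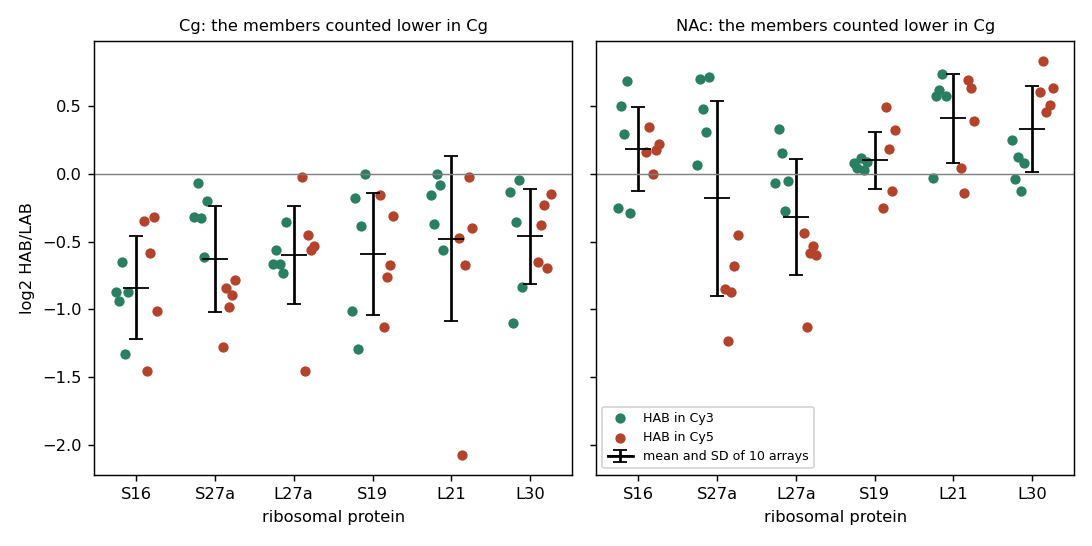
Log2 HAB/LAB on each array of the 6 members counted lower in Cg, in Cg (left) and in NAc (right), colored by the dye that held HAB, with the mean and SD of 10 arrays as bars. In Cg no array lies above 0, which was fixed by the choice of these members. In NAc, which played no part in the choice, L21, L30, S16 and S19 have means above 0 and S27a and L27a means below 0.

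In NAc 3 members were counted as higher and 0 as lower, against 0.644% and 1.35% of all probes. These were S3a, S25, whose arrays ran from 0.22 over 0.55 to 1.22, and L10A. Among the bright probes 3.76% were counted as higher in NAc, beside 5.17% of the members. In SON L10A and L29, 2 members, were higher and 0 lower (0.320% and 0.237% of all probes). L29 was above the empty spots on 6 HAB arrays and 1 LAB array there, so the size of its difference is not given. PVN had S3a alone, higher, and 0 lower (0.254% and 0.486%). BLA had L41, one of the smallest known proteins, with arrays from 0.03 over 0.43 to 1.03, and 0 lower (0.0570% and 0.166%). MeA had S5, with arrays from -0.79 over -0.36 to -0.09, as lower and 0 as higher (0.307% and 0.280%). CeA had none in either direction (0.464% higher and 0.552% lower).

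Over the 10 arrays of a region, limma with a dye term compares the 2 pools over technical replicates and not the lines. Members past an adjusted p of 0.05 were S3a (4.4e-04) and L13a (0.0366) in NAc, where 1.25% of all probes passed, and S16 (0.0284) in Cg, where 0.526% passed. L13a ran from -0.09 over 0.74 to 1.30 in NAc, with 9 of 10 arrays above 0. L10A in SON missed the threshold with an adjusted p of 0.0507. None passed in PVN, SON, BLA, CeA or MeA, where 0.386%, 0.0789%, 0.101%, 0.0701% and 0.114% of all probes passed. At an unadjusted p of at most 0.05 there were 10, 11, 2, 5 and 6 members in these regions, or 17.2%, 19.0%, 3.45%, 8.62% and 10.3%. The shares were 10.5%, 7.29%, 6.87%, 12.1% and 7.44% of all probes, and 19.3%, 10.1%, 9.10%, 33.1% and 11.2% of the bright ones. In NAc there were 19 members (32.8%), beside 12.1% of all probes and 26.6% of the bright ones, and in Cg 15 (25.9%), beside 2512 of all 22824 probes and 27.1% of the bright ones. In a fit to the 12504 probes above the empty spots, 7 members passed in NAc and 3 in Cg, where 5.22% and 3.02% of these probes passed, and 1 each in PVN and SON, where 1.56% and 0.272% passed.

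Whether a member differed by unequal amounts over the regions was asked with an F-test in limma on all 70 arrays. It gave 12 of 58 members (20.7%), against 6.09% of all probes and 34.8% of the 2605 bright probes. The share of the members thus lay between that of all probes and that of bright ones. The smallest adjusted p were those of S3a (4.6e-04), L10A (5.7e-04), S19 (9.3e-04) and S16 (0.00108). In 8 of the 12 Cg was the lowest region.

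Other parts of the translation machinery did not pass limma over the 7 region values in any list. These were 53 mitochondrial ribosomal proteins, 28 initiation factor names, 6 elongation factors, 9 ribosome biogenesis factors, 8 S6 kinases and mTOR pathway genes and 8 aminoacyl-tRNA synthetases. Their medians in Cg were -0.09, 0.04, -0.15, -0.05, 0.15 and 0.20 and in NAc 0.00, -0.04, 0.05, 0.07, 0.21 and 0.29, in this order. The smallest unadjusted p among the initiation factors were those of eukaryotic translation initiation factor 3, subunit 5 (epsilon), with a mean of -0.11, and eukaryotic translation initiation factor 1A, with 0.11. Eukaryotic translation elongation factor 1 epsilon 1, a scaffold of the synthetase complex, had a mean of 0.25 ± 0.08 (SE, adjusted p 0.377 by limma) and was above 0 in 7 of 7 regions, and elongation factor 1 alpha 1 had -0.11. Among the other lists, mitochondrial ribosomal protein S31 had 0.24 and mitochondrial ribosomal protein L55 0.23. Pescadillo homolog 1 had -0.23 and nucleolar protein 1 -0.14, ribosomal protein S6 kinase polypeptide 3 had 0.13 and tuberous sclerosis 1 0.11, and alanyl-tRNA synthetase had 0.21 and glutamyl-prolyl-tRNA synthetase 0.17.

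Markers of cell types that a punch can hold were set beside the values in Cg. There 2 of 6 neuron, 2 of 8 astrocyte, 1 of 8 microglia, 3 of 8 oligodendrocyte, 6 of 8 endothelium, 1 of 5 choroid plexus and 2 of 3 blood markers were above 0, with medians of -0.15, -0.14, -0.19, -0.10, 0.06, -0.38 and 0.58. The oligodendrocyte markers split in Cg. Proteolipid protein (1.30) and myelin basic protein (0.64) were counted as higher. Cyclic nucleotide phosphodiesterase 1 (-0.99) and myelin-associated oligodendrocytic basic protein (-0.89) were counted as lower. The summed microglia intensity in Cg ran from 2363 to 11734 in HAB and from 2639 to 9283 in LAB, and 4 of the 8 markers were above the empty spots on fewer than 5 arrays of each line. The summed neuron intensity ran from 12927 to 73297 in HAB and from 17474 to 66686 in LAB. The choroid plexus sum ran from 1422 to 12540 in HAB and from 1476 to 6923 in LAB, with 4 of 5 markers so dim. Of the 3 blood markers 2 were so dim in Cg. In NAc the medians were -0.07, 0.02, 0.13, 0.10, 0.16, 0.25 and -0.07, with the lists in the order first given. There cyclic nucleotide phosphodiesterase 1 had -1.36 and myelin-associated oligodendrocytic basic protein -1.22, both counted as lower. Proteolipid protein had 0.22 and myelin basic protein 0.45, neither counted. Hemoglobin, beta adult major chain, a gene of red blood cells, was the only one of these markers past limma over the 7 region values, with a mean of 0.84 ± 0.12 (SE, adjusted p 3.4e-04). The other blood markers, hemoglobin alpha, adult chain 1, and aminolevulinic acid synthase 2, erythroid, had means of -0.10 and 0.14. In BLA the choroid plexus markers were below 0 in 5 of 5, 2 of them counted as lower, with a median of -0.53 and a summed intensity from 3340 to 8419 in HAB and from 11383 to 25454 in LAB. The list medians farthest from 0 in the other regions were those of blood in MeA, 0.54, and in SON, 0.44. The part of all these markers in the values of the ribosomal proteins was not tested.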

How the data were processed

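The 70 arrays were grouped by the labels into 7 regions with 5 HAB-in-Cy3 and 5 HAB-in-Cy5 hybridizations each. RNA was amplified in 2 rounds before labeling, which can distort ratios. The authors deposited unnormalized scanner intensities of spot and background, in which 79.8% of the background values were 0, and a filtered table of log2 ratios, whose direction was checked against the intensities and found to be HAB over LAB. The dye of each channel was read from the scan header, and for 3 arrays from the name of the image. The members and gene lists were chosen with earlier results of these data known.

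Without the 1368 spots that were controls or empty, 22824 probes were normalized with limma 3.58.1 in R 4.3.3 (normexp, offset 50, loess over 40% of the spots, then centering of each print-tip block on its median). The 5 arrays of each dye orientation were averaged first and the 2 orientations next, which gave 1 value per region. limma (lmFit with an intercept, eBayes) was run over the 7 values with Benjamini-Hochberg adjustment over all probes, over the 10 arrays of a region with a dye term, and as an F-test over 70 arrays, and each was tested on simulated data. Above the empty spots means above their median plus 2 MAD. Levels of different probes were not compared. The number of arrays limits the precision, and p-values over arrays measure technical spread. Named were members past the test, the 5 highest and 5 lowest means, the largest counted in each region, and P1, P2 and S6. Alternatives were other background corrections and normalizations, the deposited log2 table, a filter on dim probes, the mean of all spots of a name, each dye orientation, and leaving out replicates or regions.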

Additional observations from a re-analysis of the deposited data

Results flagged for a closer look

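The difference between HAB and LAB mice varied over the regions in 12 members (20.7%) by the F-test of limma on all 70 arrays, with adjusted p over all probes. The share was 6.09% of all probes and 34.8% of the 2605 probes at least as bright as the median member. S3a had 0.07 in CeA and 1.34 in NAc (adjusted p 4.6e-04), and L10A had 0.03 in CeA and 0.99 in SON (5.7e-04). S19, which had 0.46 in SON, was at -0.59 in Cg (9.3e-04), and S16, with 0.18 in NAc, was at -0.84 in Cg (0.00108). S27, a zinc-finger protein of the small subunit, ranged from -0.49 to 0.32 (0.00259), and S27a from -0.63 in Cg to 0.19 (0.00346). L12, which lies at the base of the stalk, ranged from -0.39 in Cg to 0.67 in SON (0.00358). The dimmer spot of L12 had -0.14 in Cg and -0.09 in SON. S23, a protein of the decoding center, ranged from -0.43 in Cg to 0.28 (0.00829). L27a ranged from -0.60 in Cg to 0.21 in PVN (0.00908), and L30 from -0.46 in Cg to 0.33 in NAc (0.0102). L29 (0.0196) was highest in SON, where it was above the empty spots on 6 HAB arrays and 1 LAB array. L32 (0.0211) was highest in CeA, where it was above them on 2 HAB arrays and 0 LAB arrays, and lowest in Cg, with 3 and 3, so no size is given for these. These p compare pools over technical replicates.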

How the results depend on the processing

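The limits come from 1 pool per line and region, amplified RNA and dim probes. The S3a call was lost with normexp offset 0 (mean 0.56, adjusted p 0.352), the array median only (0.57, 0.203) and HAB in Cy5 only (0.30, 0.287), where 1 other member was higher, S20, which was not above the empty spots, and 1 lower, S27a. With offset 0 and with the array median only, 0 members were called. The exact sign-flip permutation test called 0 as well, but it could not decide, since its lowest adjusted p over all probes was 0.726. Leaving out 1 replicate at a time, the S3a mean ran from 0.50 to 0.56, and it was 0.53 without PVN, 0.50 without SON, 0.58 without BLA, 0.60 without CeA, 0.53 without MeA, 0.39 without NAc and 0.55 without Cg, and the number of members called higher from 0 to 1. The cause of these changes was not tested.

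The median over the members became 0.27 in NAc with the array median only. With HAB in Cy3 only it was 0.14 in PVN and 0.38 in SON and turned to 0.08 in MeA, and with HAB in Cy5 only it was -0.29 in MeA. It was 0.05 in BLA without replicate 4 and 0.06 without replicate 2, -0.10 in CeA without replicate 4 and with offset 0, -0.12 there with the array median only, and in the deposited table -0.01 in CeA and 0.11 in PVN. For the mean of all spots of a name it was -0.03 in CeA, and over the members above the empty spots 0.10 in PVN. NAc was higher than Cg in 29 of the 34 members with a value in every region of the deposited log2 table and in 44 to 51 of 58 under the other settings with all members, a count chosen after seeing the data.

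No share of all probes is given beside the following counts within a region, so they are not a result about the members. They show only how the counts change with the processing. With fewer arrays, more probes of any kind can meet the rule. Of these counts (1.3-fold, all arrays on 1 side), SON higher was 1 without background subtraction, with loess without the print-tip step, with print-tip loess, in the deposited table and for the mean of all spots of a name. PVN higher was 2 with offset 0 and 0 with the array median only. BLA higher was 0 with loess without the print-tip step, print-tip loess, the array median only and the deposited table. MeA lower was 0 with the same settings and for the mean of all spots. With loess without the print-tip step NAc had 6 higher, CeA 1 higher and Cg 2 lower, and with the array median only NAc had 11 higher, CeA 1 higher and Cg 1 lower. With HAB in Cy3 only, where 5 arrays had to share a side, the counts higher were 7 in PVN, 16 in SON, 15 in BLA, 2 in MeA, 10 in NAc and 3 in Cg, and the counts lower 2 in PVN, 2 in SON, 1 in BLA, 2 in CeA and 3 in MeA. With HAB in Cy5 only, the counts higher were 5 in SON, 4 in BLA, 2 in CeA, 1 in MeA and 10 in NAc, and the counts lower 2 in PVN, 3 in SON, 5 in BLA, 7 in CeA, 10 in MeA, 4 in NAc and 19 in Cg. Without 1 replicate at a time, the counts higher were 1 to 2 in PVN, 2 to 3 in SON, 1 to 2 in BLA, 0 to 1 in CeA, 3 to 5 in NAc and 0 to 1 in Cg, and the counts lower 0 to 1 in BLA, 0 to 3 in CeA, 0 to 2 in MeA and 5 to 7 in Cg.

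For limma over the arrays of a region, only probes above the empty spots gave 1 member in PVN, 1 in SON, 7 in NAc and 3 in Cg, of 195, 34, 653 and 377 probes called among 12504. The replicate numbers share no more than a number: over 35 same-numbered pairs of arrays the correlation of deviations ran from -0.0512 to 0.0420, none over 0.1. With the replicate block, 1 member was called in NAc, where 0.368% of all probes were, and 0 in Cg and the other regions. The F-test with this block called 13 members, for which no share of all probes is given. With the header date as a block, 1 member was called in Cg, where 0.456% of all probes were, and 0 in BLA and CeA.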
